A study of Mus musculus with 9 samples.

Results

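H3K27me3 of mouse MLL-ENL leukemia cells was compared between a deleted line and a floxed line, gene by gene, with 1 library on each side. MLL-ENL is a fusion of Kmt2a (MLL) and Mllt1 (ENL) that drives acute leukemia. The deleted line carries the modification labelled ΔERT2, and the floxed line is labelled fl. A further line, labelled ΔERT2 + Hhex-F and called the rescue line here, carries the deletion together with Flag-tagged Hhex. Its counts are set beside the others. Which gene is floxed is not written in the labels, but the title of the series and the tag point to Hhex, a homeobox transcription factor of early blood cells. How and when the deletion was made, and how many animals, lines or clones the cells came from, the labels do not say. Described here are genes with a symbol whose counts in the deleted and floxed libraries averaged 20 or more, 9955 of 26611 genes with a symbol. They held 96.9% of the deleted and 97.0% of the floxed counts.

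H3K27me3 is the trimethylation of lysine 27 of histone H3 that Polycomb repressive complex 2 (PRC2) writes. It covers silent developmental genes in broad domains, with the highest levels over CpG-rich promoters of transcription factor genes, and also lies thinly over long stretches of inactive chromatin. Because domains span several genes, neighbouring genes can share 1 domain. H3K4me3, the mark of active or poised promoters, was measured in the same lines and is given beside it. Each library stands alone, so differences could not be checked in replicates and lines were not tested against each other. Bulk chromatin cannot tell fewer cells with the mark from less of the mark in every cell.

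Named genes held 2535576 deleted and 2444487 floxed H3K27me3 counts, and 4203349 in the rescue library. A measured gene had a median of 113 counts in the deleted and 108 in the floxed library. Hhex itself (chromosome 19, 37434841 to 37440731, mm10) had 385 counts in the deleted and 332 in the floxed library, a ratio of 1.12 (0.963 to 1.30). These counts cover its whole span and do not check the deletion. The series title names acute myeloid leukemia, and myeloid genes were looked up in the H3K4me3 windows: 9 of 12 myeloid genes reached 20 counts in the deleted and 11 of 12 in the floxed library. Their summed H3K4me3 was 1246 CPM (counts scaled to the library total) in the deleted and 1544 CPM in the floxed library. The H3K4me3 libraries held 420701 deleted and 645240 floxed counts, so 20 counts is a higher CPM in the deleted library. Of 5 B-cell markers 1 reached 20 counts in both libraries, Ebf1, and of 5 T-cell and 5 erythroid markers none did. Of 4 stromal markers 1 did in both (Pdgfrb), and of 4 endothelial markers 1 did in the deleted library only (Kdr). Summed H3K4me3 of the B-cell, T-cell and erythroid markers was 78.4, 33.3 and 47.5 CPM deleted against 55.8, 13.9 and 41.8 CPM floxed. For stromal and endothelial markers it was 90.3 and 57.0 CPM deleted against 86.8 and 23.2 CPM floxed. The part of other cell types in the H3K27me3 differences was not tested.

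Promoters of 5 genes described below, from 250 bases before to 50 bases after the start, are shown because H3K27me3 domains often centre on CG-rich promoters. They come from RefSeq, assembly GRCm38.p6, and each is read 5′ to 3′ on the strand of its gene; capitals mark the motif CG, which reads the same on both strands. Chpf (chr1:75479422-75479721, minus strand) and Tmem198 (chr1:75479282-75479581, plus strand) start back to back, and their windows share 160 bases. Sbf2 (chr7:110614871-110615170, minus strand) had a ratio of deleted over floxed of 0.0660, while Nlrp3 (chr11:59541319-59541618, plus strand) and Prex1 (chr2:166713783-166714082, minus strand) were higher there. For Nlrp3 the table lists 2 promoters and the outermost is shown.
Chpf: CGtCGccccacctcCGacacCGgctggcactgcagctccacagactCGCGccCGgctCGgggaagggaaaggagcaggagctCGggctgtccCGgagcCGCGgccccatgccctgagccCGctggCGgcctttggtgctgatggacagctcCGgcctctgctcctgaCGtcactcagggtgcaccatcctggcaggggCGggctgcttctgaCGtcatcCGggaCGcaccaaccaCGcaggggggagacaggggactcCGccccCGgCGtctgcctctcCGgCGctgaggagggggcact
Tmem198: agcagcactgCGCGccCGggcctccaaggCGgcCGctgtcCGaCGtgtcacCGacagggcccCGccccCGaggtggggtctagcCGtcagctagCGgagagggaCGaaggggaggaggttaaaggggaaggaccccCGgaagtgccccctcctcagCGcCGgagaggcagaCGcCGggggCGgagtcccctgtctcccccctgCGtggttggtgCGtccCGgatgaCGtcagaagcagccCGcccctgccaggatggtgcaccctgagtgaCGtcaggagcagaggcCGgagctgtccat
Sbf2: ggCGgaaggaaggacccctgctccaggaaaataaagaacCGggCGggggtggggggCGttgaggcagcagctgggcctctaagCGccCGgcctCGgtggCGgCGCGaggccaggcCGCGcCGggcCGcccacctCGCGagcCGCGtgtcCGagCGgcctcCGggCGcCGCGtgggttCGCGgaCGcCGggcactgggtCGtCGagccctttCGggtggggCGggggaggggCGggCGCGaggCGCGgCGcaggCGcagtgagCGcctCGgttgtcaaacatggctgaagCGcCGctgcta
Nlrp3: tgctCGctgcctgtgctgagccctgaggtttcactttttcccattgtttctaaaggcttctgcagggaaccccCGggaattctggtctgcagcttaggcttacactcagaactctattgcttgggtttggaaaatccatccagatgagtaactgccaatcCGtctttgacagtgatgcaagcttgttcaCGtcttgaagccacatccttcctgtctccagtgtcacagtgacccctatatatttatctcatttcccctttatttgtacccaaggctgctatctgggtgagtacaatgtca
Prex1: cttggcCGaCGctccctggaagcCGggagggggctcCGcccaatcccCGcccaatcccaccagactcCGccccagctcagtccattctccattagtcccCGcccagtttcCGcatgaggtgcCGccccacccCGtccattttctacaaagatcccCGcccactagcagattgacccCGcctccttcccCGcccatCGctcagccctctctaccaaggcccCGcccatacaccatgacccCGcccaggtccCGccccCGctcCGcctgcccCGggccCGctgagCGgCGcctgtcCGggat
The Chpf and Tmem198 windows held 26 CG each and the Sbf2 window 43, while the Nlrp3 window held 4 and the Prex1 window 24. Among 32851 promoters of the same length in the table the median was 7 CG (quartiles 3 and 20), and 94.6% held at least 1. The shown windows held more CG than 83.1% (Chpf and Tmem198), 97.4% (Sbf2), 31.4% (Nlrp3) and 80.02% (Prex1) of those promoters.

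Most genes had nearly the same H3K27me3 share in both lines, and differences ran both ways. The log2 ratio of deleted over floxed had a median of 0.02 over the 9955 genes, with an interquartile range of -0.22 to 0.25 and a 5th to 95th percentile range of -0.64 to 0.65. Lower and higher stand below for a CPM ratio 1.5-fold or more from 1 whose 95% exact interval, which covers counting error only, left out 1. By this rule 539 genes (5.41%) were lower and 465 (4.67%) higher in the deleted library. Few differences were large: 11 genes had a ratio of at most 0.25 and 6 a ratio of at least 4. Across the filter, 90 genes with a mean of exactly 20 counts lay at 0.09 in the median (quartiles -0.33 and 0.51, 8 called), and 90 genes just outside, at 19.5, lay at 0.02 (-0.26 and 0.30, 7 called).

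The ratio depended on how densely a gene was covered. Density is the mean CPM of both libraries per kb of the length counted, and genes were put in 10 classes of 995 or 996 genes from class 1, the sparsest, to class 10, the densest. The median log2 ratio was -0.03 in class 1, 0.13 in class 2, 0.20 in class 3, 0.18 in class 4, 0.15 in class 5, 0.11 in class 6, 0.04 in class 7, -0.03 in class 8, -0.16 in class 9 and -0.42 in class 10. The sparsest genes thus lay near 0, genes of low to middle density leaned higher in the deleted library, and the densest leaned lower. Lower genes numbered 50 in class 1, 29 in class 4 and 237 in class 10, and higher genes 25, 85 and 2 in the same classes.

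**Figure D1:**
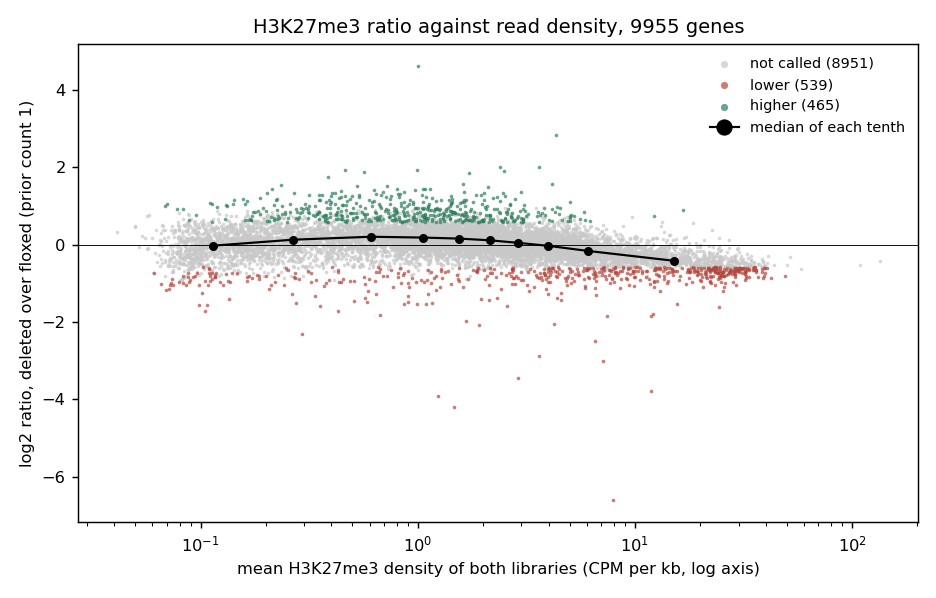
Each point is 1 gene, with mean H3K27me3 density of both libraries (CPM per kb, log axis) against the log2 ratio of deleted over floxed; red genes are lower (539), green higher (465), grey not called, and black circles are the medians of the 10 density classes. The median line lies at 0.20 in class 3 and at -0.42 in class 10, while the points farthest below 0 are spread over many densities.

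In class 10 nearly all genes had a log2 ratio below 0. Its 995 genes had 8.64 to 134.8 CPM per kb and a median length of 4936 bp, and 937 of them (94.2%) had a log2 ratio below 0. A log2 ratio within 0.5 of the class median was found in 928, while 5 lay more than 1 below it and 38 more than 0.5 above it. The class held 10.4% of the counts in the deleted library and 13.5% in the floxed library, beside 12.3% in the rescue library. The 5 genes farthest below the class were Tmem198, Btnl4, Adm, Hoxa11 and its antisense partner Hoxa11os, which overlaps it. The 2 higher genes of the class were 2900055J20Rik and Tmem52. Hhex, at 25.8 CPM per kb in the deleted and 23.1 in the floxed library, belonged to class 10 and was among the genes above 0.

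The deleted and floxed counts enter both the density and the ratio, so the classes were also set apart from them. With classes set on the rescue library alone, which is on neither side of the ratio, the medians were -0.01 in class 1, 0.20 in class 3 and -0.43 in class 10. With genes of a mean of at least 100 counts, class 1 held 97 genes with a median of 0.09 and class 10 held 827 genes with a median of -0.43. Spread beyond counting error was seen in every class: the intervals of 9.44% of class 1 genes and 28.7% of class 9 genes did not hold their own class median, against a nominal 5%. Of the 11 genes with a ratio of at most 0.25, 1 was in class 10 and 3 in class 9, and of the 6 with a ratio of at least 4, 2 were in class 8 and none in classes 9 and 10.

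By length alone, short genes leaned lower and long genes higher. The length is the span over which the authors counted. Genes under 10 kb (2216) had a median log2 ratio of -0.19, genes of 10 to 30 kb (2681) of 0.01, genes of 30 to 100 kb (2863) of 0.06 and genes of 100 kb or more (2195) of 0.11. Of genes under 10 kb, 14.8% were lower and 4.65% higher, against 2.10% and 3.01% of genes of 100 kb or more. Density and length go together here, since a short gene reaches 20 counts only where it is dense: the median density was 5.13 CPM per kb under 10 kb and 0.392 at 100 kb or more. After the median of its density class was taken from each gene, the medians of the 4 length classes were -0.01, 0.00, -0.01 and 0.01 from short to long.

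In the densest of 3 equal groups the ratio rose with length, but density fell with length as well. Median density there was 8.34, 5.17, 4.34 and 3.76 CPM per kb from short to long. The median log2 ratio of that group was -0.30 under 10 kb, -0.16 at 10 to 30 kb and -0.07 at 30 to 100 kb. At 100 kb or more it was 0.02, with a 95% interval over 132 genes of -0.03 to 0.06. In the middle group the same medians were 0.17, 0.11, 0.09 and 0.15, and in the sparsest group 0.18 (18 genes), 0.22, 0.13 and 0.10, with no common order. In density class 10 itself the medians were -0.46 for 771 genes under 10 kb, -0.34 for 182 of 10 to 30 kb, -0.22 for 39 of 30 to 100 kb and -0.10 for 3 longer ones. Density also differed between these length classes, with medians of 17.8, 11.8, 10.9 and 9.65 CPM per kb, so length and density are not fully parted there. In density class 9 the median log2 ratios were -0.18, -0.18, -0.11 and -0.08 from short to long. Class 8 had -0.01, -0.04, -0.05 and 0.04.

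**Figure D2:**
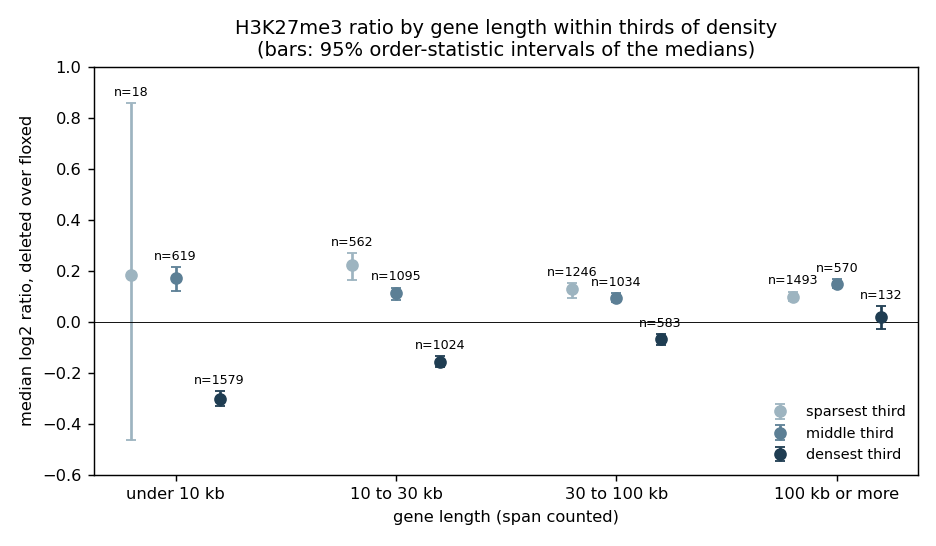
Median log2 ratio of deleted over floxed (points) with 95% order-statistic intervals over genes (bars) in 4 classes of gene length, for the sparsest, middle and densest of 3 equal groups by density, with the number of genes above each point. The densest group climbs from -0.30 under 10 kb to 0.02 at 100 kb or more, while the other groups lie between 0.09 and 0.22. Median density in the densest group falls from 8.34 CPM per kb under 10 kb to 3.76 at 100 kb or more.

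Ratios of genes next to each other on a chromosome were correlated most for pairs under 50 kb apart. Positions were found for 9733 of the 9955 genes, and each was paired with the next measured gene. The Pearson correlation of the log2 ratios was 0.31 for 445 pairs with overlapping spans, which may share reads depending on how the authors counted them. For pairs that do not overlap it was 0.34 under 10 kb apart (1655 pairs), 0.19 at 10 to 50 kb (2598 pairs), 0.08 at 50 to 200 kb (3033 pairs), 0.04 at 200 kb to 1 Mb (1651 pairs) and 0.01 at 1 Mb or more (330 pairs). The Spearman correlation over the same gaps was 0.27, 0.16, 0.07, 0.03 and 0.01. Close genes can be alike in density, so the correlation was repeated with the class median taken off: it was then 0.27 under 10 kb, 0.14 at 10 to 50 kb and 0.06 at 50 to 200 kb. All pairs come from the same 2 libraries and are not independent.

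Most called genes had a next gene without the same call, but the share with it was above that of all genes. Of 521 lower genes with a next measured gene, 78 (15.0%, 12.02% to 18.3%) were followed by another lower gene, against 5.35% lower among all positioned genes, and 14 by a higher one. Of 450 higher genes, 37 (8.22%, 5.86% to 11.2%) were followed by a higher gene, against 4.65%, and 14 by a lower one. That share for higher genes was 5% with a 2-fold rule, by which 1.42% of measured genes were higher. It was 5.05% without the count filter, where 840 of 22892 genes were higher. Under 10 kb apart, 24.8% of 117 lower genes had a lower next gene, while at 50 to 200 kb 6.85% of 146 did, close to the 5.35% of all genes. At 200 kb to 1 Mb 9.86% of 71 did (4.06% to 19.3%). These shares were not set against density, and in density class 10 23.8% of all genes were lower. The part of density in them was not tested. With genes left out that share a name stem with the gene before them, which removes tandem families such as Hox, the share for lower genes was 10.5%.

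**Figure D3:**
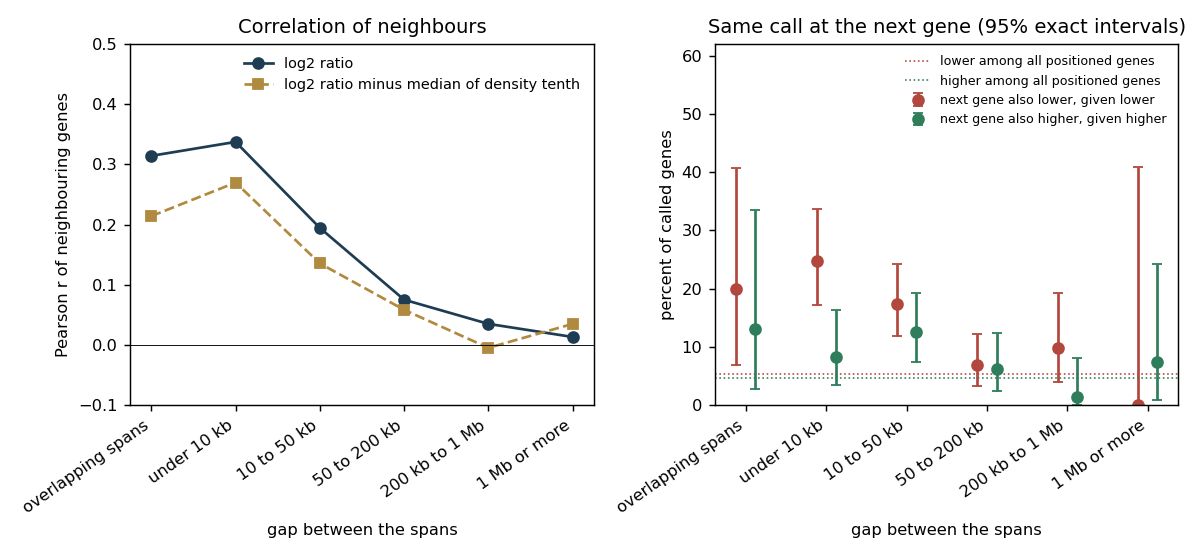
Left, Pearson correlation of the log2 ratios of neighbouring measured genes by the gap between their spans, as measured and after subtracting the median of each density class. Right, percent of lower (red) and higher (green) genes whose next measured gene has the same call, with 95% exact intervals, and dotted lines for 5.35% lower and 4.65% higher among all positioned genes; the correlation and the share for lower genes, 24.8%, are highest under 10 kb.

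Called genes formed short runs. Runs of at least 3 measured genes in order of position with the same call numbered 15 for lower genes, with 58 genes in all, and 3 for higher genes, with 10 genes; there were also 35 lower and 30 higher pairs. Of the lower runs, 4 lay in Hox clusters. Outside Hox, the longest held 6 genes on chromosome 17, 35342307 to 35516837: H2-Q2, H2-Q4, H2-Q6, H2-Q7 and H2-Q10, class I major histocompatibility genes, and Tcf19, a gene linked to cell growth. Together they had 935 deleted and 1526 floxed counts, a ratio of 0.591 (0.544 to 0.641), beside 2460 counts in the rescue library. H2-Q2 had 18.6 CPM per kb in the deleted and 32.8 in the floxed library, and Tcf19 2.41 against 6.70. The H2-Q genes are near-identical copies, so reads may be split among them and their calls are not separate.

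The following lower runs were picked after their values were seen. Asic4, Chpf, Tmem198 and Obsl1 on chromosome 1, 75450510 to 75506486, had 936 counts in the deleted and 2309 in the floxed library, a ratio of 0.391 (0.362 to 0.422), and 3936 in the rescue library. Chpf, which encodes a factor for chondroitin synthesis, had 0.0804 CPM per kb in the deleted library against 15.8 in the floxed library. That is 1 count against 189, a ratio of 0.00510 with an interval of 0.000128 to 0.0288. Tmem198, a membrane protein gene that starts at the same CG-rich window, had 1.54 CPM per kb in the deleted library and 22.2 in the floxed library. The outer members kept more: Asic4, of the acid-sensing ion channel family, had 7.83 against 16.8 CPM per kb, and Obsl1, a cytoskeletal linker gene, 8.37 against 16.1. The flanking Speg and Inha, at ratios of 0.776 (0.713 to 0.843) and 0.802 (0.603 to 1.06), were not called.

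Lower runs also joined genes of unlike density. Zfp1, Ctrb1, Bcar1 and Cfdp1 on chromosome 8, 111643443 to 111854337, had 1628 deleted and 2827 floxed counts, a ratio of 0.555 (0.522 to 0.590). Bcar1, an adaptor protein of integrin signalling, had 13.1 CPM per kb in the deleted and 21.5 in the floxed library. Zfp1, a zinc finger gene, had 0.186 against 0.490, on 13 and 33 counts. The butyrophilin-like genes Btnl4, Btnl5-ps and Btnl6 with BC051142 had 465 deleted and 1331 floxed counts, a ratio of 0.337 (0.302 to 0.375). They are related in sequence and may share reads.

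The run with the lowest pooled ratio held 3 genes. U90926, Ppef2 and Naaa on chromosome 5, 92209895 to 92278181, had 149 deleted and 1043 floxed counts, a ratio of 0.138 (0.115 to 0.164), and the flanking Cdkl2 and Art3 were not called. Cdrt4, Tekt3 and Pmp22 on chromosome 11 had 289 deleted and 645 floxed counts, beside 3276 in the rescue library.

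The 3 higher runs were led by the Nlrp3 locus. Snap47, Zkscan17, 4933439C10Rik and Nlrp3 on chromosome 11, 59407141 to 59566955, had 890 deleted and 292 floxed counts, a ratio of 2.94 (2.57 to 3.37), and 491 in the rescue library. Nlrp3, the sensor of an inflammasome, had 7.57 CPM per kb in the deleted library against 1.04 in the floxed library. Its neighbour Olfr222, an olfactory receptor gene, was dense in both libraries at 15.7 against 15.4 CPM per kb. The ratio of Olfr222 was 1.02 (0.628 to 1.65). Ceacam3, Psg22 and Psg19 on chromosome 7 had 99 deleted and 46 floxed counts, a ratio of 2.07 (1.45 to 3.01), but spread over 1648 kb among related genes that may share reads. Fam151a, Acot11 and Ssbp3 on chromosome 4 had 204 deleted and 105 floxed counts, a ratio of 1.87 (1.47 to 2.39).

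**Figure D4:**
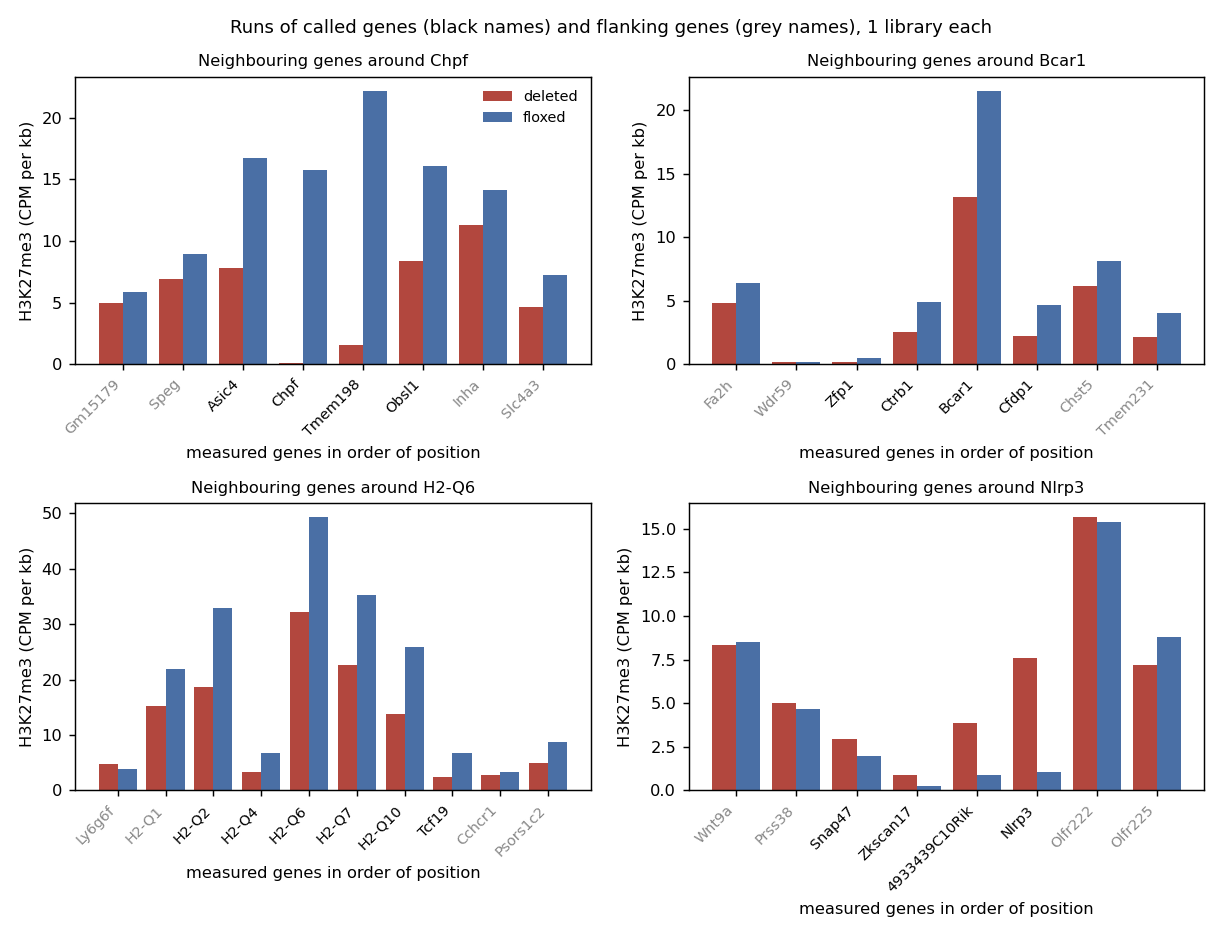
H3K27me3 density (CPM per kb) of the deleted (red) and floxed (blue) library for measured genes in order of position at 4 runs of called genes, with the run in black names and 2 flanking genes on each side in grey; 1 library each, so there are no error bars. At Chpf the deleted bar is 0.0804 against 15.8 in floxed, while at Nlrp3 it is 7.57 against 1.04 and the neighbouring Olfr222 has nearly equal bars.

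Genes were next taken from each length class by how far their interval lay from 1, leaving out Hox genes, Cdkn2a, Cdkn2b, microRNAs, predicted genes and clone names (such as Gm, Rik and -ps symbols) and genes beside one already taken. Among lower genes under 10 kb these were Chpf, Btnl4 and Adm, the gene of the peptide hormone adrenomedullin. Adm had 65 deleted and 193 floxed counts, a ratio of 0.325 (0.241 to 0.432), and 342 in the rescue library. It lies beside Sbf2, a large gene linked to phosphoinositide signalling, with 0.154 CPM per kb in the deleted library against 2.34 in the floxed library. Sbf2, at 306908 bp with a ratio of 0.0660 (0.0544 to 0.0795), was left out of the class of 100 kb or more as a gene beside Adm. It was named after its values were seen.

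At 10 to 30 kb the lower genes were Naaa, an enzyme that breaks down lipid amides, Adamdec1, a metalloprotease gene, and Pmp22, a myelin protein gene. Naaa had 0.135 CPM per kb in the deleted library and 2.81 in the floxed library. Adamdec1 had 1.63 against 6.85, a ratio of 0.237 (0.182 to 0.305), and lies near Adam28, another lower metalloprotease gene. Pmp22 had 91 deleted and 267 floxed counts, a ratio of 0.329 (0.256 to 0.418), and 1150 in the rescue library.

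At 30 to 100 kb, with Adam28 left out as a gene beside Adamdec1, they were Igf2r, Limd1 and Golm1. Igf2r is the receptor that clears Igf2, Limd1 a LIM domain scaffold and Golm1 a Golgi membrane protein gene. Limd1 had 10 deleted and 52 floxed counts, a ratio of 0.185 (0.0840 to 0.369), and 698 in the rescue library. Golm1 had 30 deleted and 105 floxed counts, a ratio of 0.275 (0.177 to 0.417), and 661 in the rescue library. Limd1 had 0.0920 CPM per kb in the deleted and 0.496 in the floxed library, and Golm1 0.290 against 1.053. Both had more counts in the rescue library than in the others, which is also the deepest.

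Among genes of 100 kb or more, with Sbf2 left out, they were Samd4, Myo1e, a myosin, and Mgll. Samd4 is an RNA-binding repressor of translation, and Mgll breaks down the endocannabinoid 2-AG. Samd4 had 340 deleted and 943 floxed counts, a ratio of 0.348 (0.306 to 0.394), against 8334 in the rescue library. Myo1e had 365 deleted and 789 floxed counts, a ratio of 0.446 (0.393 to 0.506), against 4521 in the rescue library. Mgll, in the sparsest class, had 19 deleted and 50 floxed counts, a ratio of 0.366 (0.204 to 0.632). The large rescue counts of Samd4 and Myo1e stand apart from both lines compared here.

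The higher genes of the same rule were mostly sparse in the floxed library. Under 10 kb these were N4bp3, Sppl2c, an intramembrane protease gene, and Misp, a spindle protein gene, with 38 to 55 deleted counts against 9 to 14 floxed counts. At 10 to 30 kb Thbs1, which encodes the matrix protein thrombospondin 1, had 75 deleted and 2 floxed counts, a ratio of 36.2 (9.67 to 304), and 19 in the rescue library. Nlrp3 and Hspbp1, a cochaperone of Hsp70, followed, the second with 46 deleted and 11 floxed counts. The ratio of Thbs1 rests on 2 floxed counts, which its wide interval shows.

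At 30 to 100 kb the higher genes were Dcun1d2, of the machinery that modifies cullins, Plcg1, a phospholipase C of receptor signalling, and Ttc21a, a gene of cilia. Plcg1 had 104 deleted and 37 floxed counts, a ratio of 2.71 (1.85 to 4.06), and 25 in the rescue library. Dcun1d2 had a ratio of 2.89 (1.88 to 4.57) and Ttc21a one of 2.44 (1.72 to 3.53). At 100 kb or more they were Prex1, Gng2, a subunit of G proteins, and Tusc3, a subunit of the enzyme that puts sugar chains on proteins. Prex1, an exchange factor that activates Rac, had 1334 deleted and 535 floxed counts, a ratio of 2.40 (2.17 to 2.66), and 246 in the rescue library. Tusc3 had 207 deleted and 82 floxed counts, a ratio of 2.43 (1.88 to 3.18). The promoter windows printed above for Prex1 and Nlrp3 held 24 and 4 CG, and both genes were higher.

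Gene lists were made by symbol or by name, and each is described by its counts and its median beside those of all measured genes. Developmental transcription factor genes outside Hox were the list with the lowest median among those of at least 3 measured genes. Of 141 listed, 135 were measured, 40 (29.6%) were lower and 0 higher, against 5.41% and 4.67% of all measured genes. The median log2 ratio was -0.47, against 0.02 for all, and 128 lay below 0. Their median density was 19.1 CPM per kb, and relative to their density classes the median was -0.12. That density is in the range of class 10, where 23.8% of all genes were lower and 0.201% higher. Tfap2a, a regulator of neural crest and skin, had 335 deleted and 611 floxed counts, a ratio of 0.529 (0.461 to 0.605). Named after their values were seen, Dlx1, a regulator of forebrain neurons, had 47 against 100, Dlx3, of skin and bone, 180 against 334, and Gsx1 109 against 216. The symbol pattern also took in Islr2, which is not a transcription factor.

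Forkhead, Sox, T-box and Gata genes followed at some distance. Of 82 listed, 64 were measured, 8 (12.5%) were lower and 0 higher, against 5.41% and 4.67% of all measured genes. The median was -0.31, or -0.04 relative to density class. Their median density was 12.5 CPM per kb, also in the range of class 10, where 23.8% of all genes were lower. Foxd1, a factor of kidney stroma, had 171 deleted and 302 floxed counts, a ratio of 0.546 (0.450 to 0.661). Of 52 measured Wnt, Fgf, Bmp and Gdf ligands, 2 (3.85%) were lower and 0 higher, with a median of -0.14. Wnt6 had 162 deleted and 277 floxed counts and Fgf4, the other lower one, 201 deleted and 317 floxed counts. Their median density was 5.22 CPM per kb.

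Lists of tissue genes, at lower density than the lists above, leaned the other way. Of all measured genes 4.67% were higher, and in density classes 2 to 5 this share was 6.53% to 10.3%. Of 41 measured keratins, 7 (17.1%) were higher and 1 lower, with a median of 0.20, which stayed at 0.20 relative to density class. Keratins had a median density of 2.83 CPM per kb, within class 7, where 3.41% of genes were higher. Krt74 had 57 deleted and 18 floxed counts, a ratio of 3.05 (1.77 to 5.51), while Krt24 was the lower one with 43 deleted and 80 floxed counts. Of 40 measured serpins, a family of protease inhibitors, 8 (20%) were higher and 0 lower with a median of 0.09, or 0.04 relative to density class, and Serpinb9 had 47 deleted against 23 floxed counts. Of 42 measured vomeronasal receptors, out of 328 listed, 7 (16.7%) were higher and 1 lower with a median of 0.22, or 0.04 relative to density class. Of 58 measured cytochrome P450 genes 5 (8.62%) were higher and 0 lower with a median of 0.14, or 0.09 relative to density class, and Cyp4f40 had 143 deleted against 77 floxed counts. These families hold tandem copies that may share reads, and most of their members have few counts.

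**Figure D5:**
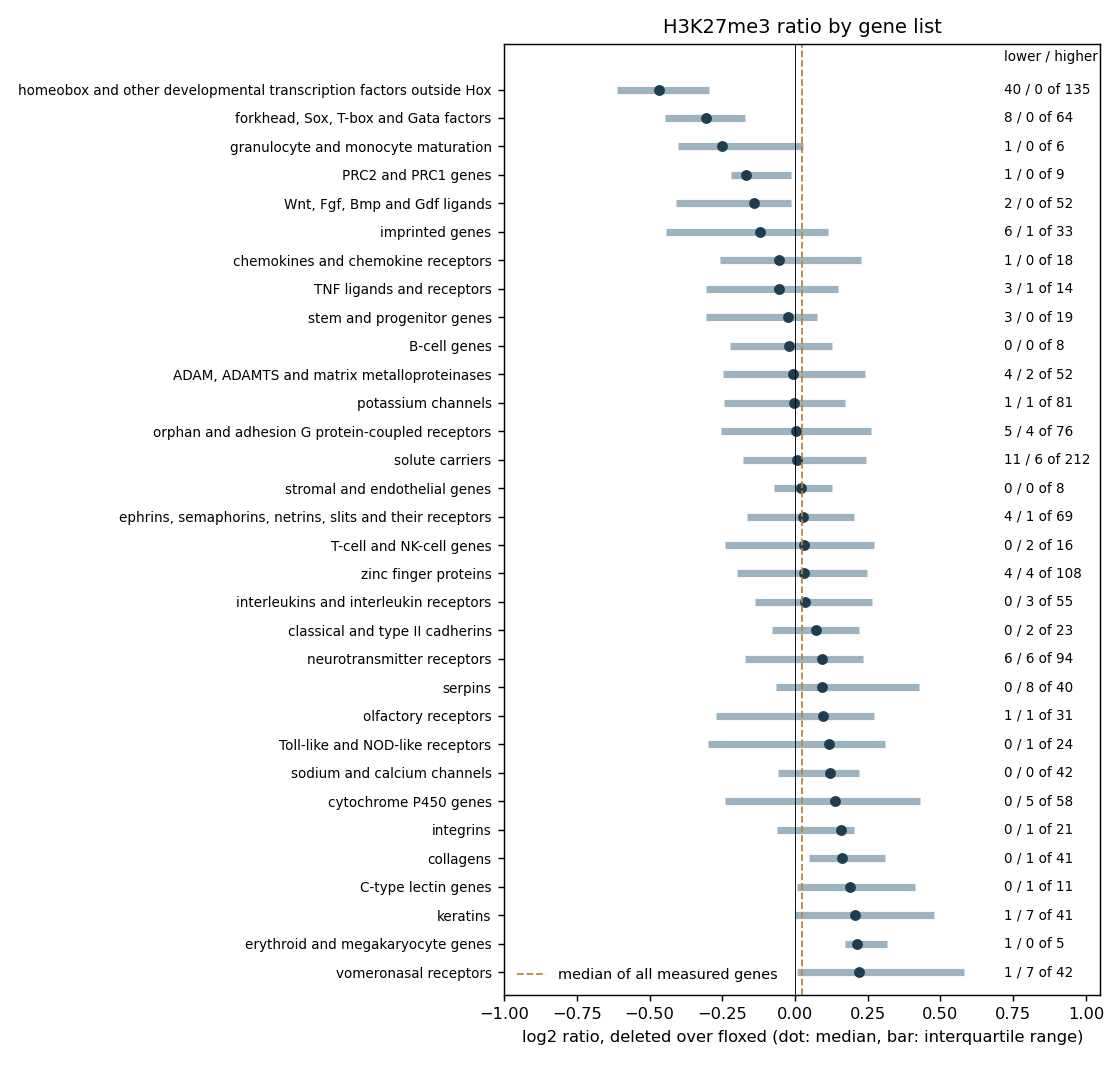
Median log2 ratio of deleted over floxed (dots) and interquartile range (bars) for lists with at least 3 measured genes, ordered by median, with the number of lower and higher genes of those measured at the right and a dashed line at the median of all measured genes, 0.02. Developmental transcription factors lie lowest at -0.47, and vomeronasal receptors highest at 0.22.

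Receptor and channel lists lay near the median of all genes but some held genes called both ways. Of 94 measured neurotransmitter receptors 6 were lower and 6 higher, 6.38% each way, near the 5.41% and 4.67% of all measured genes, with a median of 0.09. The lower ones were Adra2a, Adra2b, Adrb1 and Adrb3, receptors for adrenaline and noradrenaline, and Drd1 and Drd4, receptors for dopamine, named after their values were seen. All 6 lay in density class 10, whose median log2 ratio was -0.42, and relative to it they had -0.28 (Adra2a) to -0.55 (Adrb1). Other receptors of these families in the same class were not called: Adra2c had 228 deleted and 203 floxed counts, a ratio of 1.08, Adra1d a ratio of 0.775 and Drd5 a ratio of 0.905. Adrb1 had 120 deleted and 228 floxed counts, a ratio of 0.507 (0.403 to 0.636). The higher ones were Chrng, Chrnb3, Chrna2, Gabra5, Grm3 and Htr1a, also named after their values. Grm3 had 159 deleted and 93 floxed counts, a ratio of 1.65 (1.27 to 2.15). Of 212 measured solute carriers 11 were lower and 6 higher with a median of 0.01, and the glucose transporter Slc2a3 had 40 deleted against 104 floxed counts. Potassium channels, with 1 lower (Kcng3) and 1 higher of 81, and sodium and calcium channels, with none of 42 called, had medians of -0.00 and 0.12.

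Lists of surface and matrix genes had medians between -0.01 and 0.16, and their counts stand beside 5.41% lower and 4.67% higher of all measured genes. Of 69 measured axon guidance genes 4 (5.80%) were lower, led by Plxnc1 with 243 deleted and 407 floxed counts, and 1 was higher. Of 52 metalloprotease genes 4 (7.69%) were lower, led by Adam28 at a ratio of 0.135 (0.109 to 0.165), and 2 higher. Of 23 cadherins 2 (8.70%) were higher, led by Cdh17 with 230 deleted and 107 floxed counts, and of 41 collagens 1, Col20a1, with 168 deleted and 76 floxed counts. Of 76 orphan and adhesion receptors 5 (6.58%) were lower and 4 (5.26%) higher, led by Gpr63 with 32 deleted and 10 floxed counts. Of 108 zinc finger genes 4 were lower and 4 higher, led by Zkscan17 of the Nlrp3 run. The single higher integrin entry of 21, Itgb3bp, carries a symbol of that pattern but is a centromere protein.

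Immune and blood lists are small, so that 1 gene can move a share past the 5.41% lower or 4.67% higher of all measured genes. Of 55 measured interleukin and receptor genes 3 were higher, led by Il6ra with 227 deleted and 115 floxed counts, and 0 lower. Of 24 Toll-like and NOD-like receptor genes Nlrp3 alone was called. Of 14 TNF family genes 3 were lower, led by Tnfrsf25 with 91 deleted and 163 floxed counts, a share of 21.4%, and 1 was higher. The lower Tnfrsf25 and Tnfsf9 lay in density class 10, where 23.8% of all genes were lower. Tnfrsf13c, the other lower one, lay in class 9, where 7.03% were. Of 18 chemokine genes 1 was lower, Cxcl5, with 22 deleted and 46 floxed counts. Of 11 C-type lectin entries 1 was higher, Clec16a, and of 31 olfactory receptors 1 was lower, Olfr94, and 1 higher. Of 16 T-cell and NK-cell genes Zap70, a kinase of the T-cell receptor, was higher with 174 deleted and 96 floxed counts, as was Ctla4, a share of 12.5%, while none of 8 B-cell and 8 stromal and endothelial genes was called.

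In the blood cell lists, 3 of 19 measured stem and progenitor genes (15.8%) were lower and none higher, with a median of -0.02. Of all measured genes 5.41% were lower and 4.67% higher. Mycn had 222 deleted and 391 floxed counts, Bmi1, a subunit of PRC1, 55 and 87, and Procr 53 and 86. Of 6 measured granulocyte and monocyte genes Mmp9 was lower, with 124 deleted and 217 floxed counts. Of 5 erythroid and megakaryocyte genes Epor, the erythropoietin receptor, was lower with 163 deleted and 253 floxed counts, although the list median was 0.21. Mycn, Mmp9 and Epor lay in density class 10, where 23.8% of all genes were lower. Of 9 measured PRC2 and PRC1 genes Bmi1 alone was called. None of 81 ribosomal protein genes reached the count filter.

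Imprinted genes, of which 1 parental copy is silent, held 6 lower (18.2%) and 1 higher (3.03%) of 33 measured. Of all measured genes 5.41% were lower and 4.67% higher. The list had a median of -0.12, or -0.04 relative to density class. The lower genes Cdkn1c, Phlda2 and Klf14 lay in density class 10, where 23.8% of all genes were lower. Cdkn1c and Phlda2, of 1 imprinted cluster on chromosome 7, had 82 and 65 deleted counts against 128 and 113 floxed counts. Ascl2, also of that cluster, had 37 deleted and 67 floxed counts, and Klf14 on chromosome 6 had 141 against 207. Igf2r, with 161 deleted and 664 floxed counts, and Airn, with 202 and 775, made up the other 2 lower genes. Their spans overlap in part, and reads in the shared stretch cannot be assigned to one of them. Slc22a2, an organic cation transporter gene on the same chromosome, was the higher one, with 301 deleted and 172 floxed counts and a ratio of 1.69 (1.39 to 2.05).

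H3K4me3 medians differed little between genes with and without an H3K27me3 call. The H3K4me3 window of each gene, 301 bp long, reached a mean of 20 counts for 6867 genes, of which 309 (4.5%) were lower and 219 (3.19%) higher in the deleted library by the same rule. Of 539 genes lower for H3K27me3, 181 were measured for H3K4me3, with a median log2 ratio of 0.10, 6 lower and 13 higher (7.18%). Of 465 genes higher for H3K27me3, 75 were measured, with a median of 0.04, 2 lower and 3 higher. Genes measured for both marks without an H3K27me3 call numbered 1975, with a median of 0.07, 50 lower and 123 higher (6.23%). The median over all genes measured for H3K4me3 was -0.03. By H3K27me3 density the H3K4me3 median was -0.04 in class 1, 0.10 in class 5 and 0.19 in class 10. H3K4me3 totals were 420701 deleted and 645240 floxed counts, and the part of this depth gap in that order was not tested.

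Genes called for both marks differed in opposite directions or in the same one, and those named here were named after their values were seen. Of genes lower for H3K27me3, 13 were higher and 6 lower for H3K4me3, and of genes higher for H3K27me3, 2 were lower and 3 higher for H3K4me3. The 13 include H2-Q6, H2-Q7 and H2-Q10, near-identical copies whose calls are not separate. Adm had 65 deleted and 193 floxed H3K27me3 counts, and 84 deleted and 23 floxed H3K4me3 counts, an H3K4me3 ratio of 5.60 (3.50 to 9.31). Slc4a3, an anion exchanger 2 measured genes beyond Obsl1, had 154 deleted and 234 floxed H3K27me3 counts, and 51 deleted and 28 floxed H3K4me3 counts, an H3K4me3 ratio of 2.79 (1.73 to 4.601). The homeobox genes Lhx2 and Six2 were also lower for H3K27me3 and higher for H3K4me3, with H3K4me3 ratios of 1.90 (1.21 to 2.99) and 1.99 (1.07 to 3.77). The 6 genes lower for both marks were Cnnm2, Evx2, Hoxa10, Mgam, Tnfsf9 and Trib1, and the 3 higher for both were Kctd2, Kmo and Mdfic. Evx2, a homeobox gene beside the Hoxd cluster, had an H3K27me3 ratio of 0.613 and an H3K4me3 ratio of 0.595. Kmo, an enzyme of tryptophan breakdown, had an H3K27me3 ratio of 1.68 and an H3K4me3 ratio of 2.17. Nlrp3 was higher for H3K27me3 and lower for H3K4me3, with 8 deleted and 40 floxed H3K4me3 counts, a ratio of 0.307 (0.124 to 0.664). Tmem198, whose H3K27me3 was far lower, had 59 deleted and 87 floxed H3K4me3 counts, a ratio of 1.04 (0.734 to 1.46), and Thbs1 62 against 109, a ratio of 0.872 (0.628 to 1.202).

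Summits of the M2 Flag immunoprecipitation, which marks tagged Hhex only in the rescue line, were rare near called genes. There were 429 summits in the rescue, 220 in the deleted and 475 in the floxed library. Of 521 positioned lower genes, 3 (0.576%, 0.119% to 1.67%) had a rescue summit within 10 kb of the gene span, beside 1 with a deleted and 6 with a floxed summit, and these last 2 lines carry no tag. Of 453 positioned higher genes the numbers were 1, 1 and 4. Of 8759 genes without a call, 95 (1.08%), 50 and 112 had one. The 3 lower genes with a rescue summit were Coro6, Cyyr1 and Cmss1, and Cmss1 had summits in all 3 libraries.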

How the data were processed

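Gene counts of H3K27me3 and H3K4me3 chromatin immunoprecipitation libraries were used as deposited by the authors, as whole-number counts for genes that carry an Entrez identifier, symbol and length. Per the submitters' processing notes featureCounts, MACS2 and the build mm10 were used, with no version, and no aligner is named there. Per the labels' protocols chromatin was sonicated and precipitated with polyclonal antibodies. Lengths in the deposited tables show that H3K27me3 was counted over gene spans and H3K4me3 in 301 bp windows, whose position relative to the gene is unknown here. The Flag lists hold summits with a −log10 score, deposited by the authors; only their positions were used. No input or spike-in library was used here, so ratios are relative to the library total, and a change shared by all genes cannot be seen.

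Rows without a symbol (568 of 27179, 0.608% of deleted and 0.629% of floxed H3K27me3 counts) and 1 gene with a length below 0 were left out. CPM was taken over named genes. The ratio of deleted over floxed was given the exact conditional (Clopper-Pearson) 95% interval, which covers counting error only. A prior count of 1 entered the log2 ratios. Medians had order-statistic intervals and shares exact binomial intervals; these take genes as independent draws, which neighbours are not. Positions and promoters came from RefSeq tables of GRCm38.p6, the assembly of mm10, matched by Entrez identifier for 9733 of 9955 genes. Promoters were found for 74.8% of measured genes, under the 80% set as needed, so a planned comparison of promoter CpG between lower and higher genes is void.

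Named genes were, in each of 4 length classes, the 3 lower and 3 higher genes with the interval farthest from 1, the genes of the 4 lower and 3 higher runs with most genes, and the leading called member of each list. The choice by length class and by list left out Hox genes, Cdkn2a, Cdkn2b, microRNAs, and predicted genes and clone names; that by length class also passed over genes beside one already taken. All other genes given with values were named after their values were seen. Some genes and 1 gene list are not reported here. The genes, lists and rules were chosen with earlier results of these data known. Alternatives were other library scalings, count filters, a 2-fold rule, a prior count of 5 and density classes from the rescue library. Leaving out overlapping genes or tandem families was also tried. The scalings were edgeR 4.0.16 TMM factors, and the sparsest of the density classes from the rescue library set to a median ratio of 1. The calling step was tested on simulated counts that held counting error only. How it performs with the wider spread seen in these libraries was not tested. Python 3.11.15, pandas 2.3.3, numpy 2.4.6, scipy 1.17.1, matplotlib 3.10.9 and R 4.3.3 were used.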

Additional observations from a re-analysis of the deposited data

How the results depend on the processing

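No paired analysis was possible because each side has 1 library, and no replicate could be left out. With TMM factors 589 genes were lower and 427 higher, and the median of all genes was -0.00. A second scaling set the sparsest of the density classes from the rescue library to a median ratio of 1. With it 516 genes were lower and 491 higher, and the median was 0.03. The counts of lower and higher genes were 112 and 141 with a 2-fold rule, and 280 and 95 with a mean of at least 100 counts. Without a filter 774 and 840 were called, on counts that can be very low. The difference of densest and sparsest class was -0.39, and it was -0.63 with a mean of at least 100 counts, -0.24 without a filter and -0.31 among genes of 10 to 100 kb. The difference of long and short genes was 0.31, and it was 0.58 with a mean of at least 100 counts, 0.14 without a filter and -0.0062 within the middle 4 density classes, where its interval was -0.07 to 0.06. The share of lower genes followed by a lower gene, 15.0%, was 10.3% without a filter and 10.5% without tandem families. For higher genes, 8.22%, it was 5% with a 2-fold rule and 5.05% without a filter. The share of all genes called also differed between these settings. With a 2-fold rule 1.42% of genes were higher, and without a filter 774 of 22892 were lower and 840 higher. Why these values moved was not tested beyond the number of genes that each setting leaves. The other 26 values kept direction and size, as did 71 of 72 values of named genes, of which 1 moved (Chpf with a prior count of 5) and none changed sign. The promoter CpG comparison was not run. Depth limits sparse genes most, with a median of 33 counts in each library in the sparsest class.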

Other observations

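The ratio differed little between chromosomes. Medians over measured genes of the autosomes ran from -0.04 on chromosome 11 (714 genes, 58 lower and 28 higher) to 0.08 on chromosome 1 (656 genes, 22 lower and 40 higher), and the X chromosome had 0.06 (292 genes). Chromosome 17 had the highest share of lower genes among chromosomes, 38 of 419 genes (9.07%), and holds the H2-Q and Btnl runs. Its median was -0.00. Only 3 genes of the Y chromosome were measured.

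The 6 genes with a ratio of at least 4 were Thbs1, Nlrp3, Gm13539, 4933439C10Rik, Misp and Hspbp1, named after their values were seen. The 11 with a ratio of at most 0.25 were Chpf, Naaa, Sbf2, Tmem198, Cdkn2b, Ppef2, Adam28, Btnl5-ps, Limd1, Igf2r and Adamdec1. Ppef2, a phosphatase of photoreceptors, had 105 deleted and 815 floxed counts, beside 1567 in the rescue library.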
